A study of Mus musculus with 24 samples.

Results

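The 6 protein genes that mitochondrial DNA contributes to complexes III, IV and V of the respiratory chain were measured in *M. gastrocnemius*, the large calf muscle, of mice breathing normal or oxygen-poor air. The genes were *CYTB*, *COX1*, *COX2*, *COX3*, *ATP6* and *ATP8*. They were chosen from the contrast of Hypox against Norm with results of that contrast known, so that their differences between the groups are given as a description and without a test. The members were all non-control probes of the array whose gene name was one of the 6, which gave 6 probes, 1 for each gene, among 9186 genes tested. All 6 passed the filter on dim probes.

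Mitochondrial DNA is a small circular genome that is transcribed in long polycistronic RNAs, from which the tRNAs are cut out so that the mRNAs between them are released. Its proteins are all subunits of the oxidative phosphorylation system, in which electrons are passed along the inner membrane to oxygen and the proton gradient so formed drives ATP synthase. Cytochrome c oxidase, complex IV, is the enzyme that consumes oxygen. Each of these complexes also holds subunits made from nuclear genes, and skeletal muscle is rich in both sets of mRNA.

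Male C57BL/6JOlaHsd mice arrived at an age of 10 weeks, received a diet with 10% of its energy from fat for 3 weeks, and then one with 40% for 6 weeks. All mice were fasted and were killed directly after an exposure of 6 h, which 12 of them (Norm) spent at 20.9% oxygen and 12 (Hypox) at 12% oxygen. Every array carried the Cy5-labelled RNA of 1 mouse and a Cy3-labelled pool of all samples, so that a value is the log2 ratio of that mouse to the pool. Every mouse was a fasted male on the high-fat diet, which limits what both groups stand for, and each muscle was ground whole, so that fewer cells of a type and less RNA per cell cannot be told apart, and neither can fewer mitochondrial genomes and less RNA per genome.

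The array reads each gene through 1 stretch of 60 bases, shown here because each value below is a reading of that stretch alone. All 6 lie on the plus strand of chromosome M in the build mm9, inside the coding sequence of their gene. The capitals mark the start codon of *ATP6* at the end of the *ATP8* probe and, near the start of the *ATP6* probe, the stop codon in the reading frame of *ATP8*.
CYTB (chrM:15099-15158): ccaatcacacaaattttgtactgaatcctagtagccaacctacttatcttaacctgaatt
COX1 (chrM:6650-6709): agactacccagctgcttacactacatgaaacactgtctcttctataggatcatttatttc
COX2 (chrM:7619-7678): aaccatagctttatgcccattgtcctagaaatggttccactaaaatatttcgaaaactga
COX3 (chrM:9072-9131): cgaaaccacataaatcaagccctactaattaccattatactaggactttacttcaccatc
ATP6 (chrM:7965-8024): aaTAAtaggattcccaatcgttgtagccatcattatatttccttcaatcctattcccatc
ATP8 (chrM:7870-7929): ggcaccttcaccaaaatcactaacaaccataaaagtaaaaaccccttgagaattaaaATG

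*ATP8* and *ATP6* overlap. By the offsets in the scanner files, *ATP6* begins at base 7927 and *ATP8* ends at base 7969, so that they share 43 bases and are carried by the same mRNA. The probes of the pair do not overlap and lie 35 bases apart, while 191 bases separate the *COX2* probe from that of *ATP8*. The GC content of the 6 probes was between 35.0% and 38.3%, and no other probe of the array shared a run of 20 bases with any of them, letter by letter on the same strand. Counted from the first base of each gene, the *ATP6* probe covers bases 39 to 98, whereas those of *CYTB* and *COX1* begin at bases 955 and 1323.

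Both groups were spread evenly over 6 slides, 2 arrays of each on every slide. The median of the mean Cy5 signal of an array was 341 in Norm (58.3 to 933) and 368 in Hypox (63.5 to 1014). The 4 arrays of slide 1 were the dimmest, between 58.3 and 102, and those of slide 6 the brightest, between 645 and 1014. All 9 muscle fibre markers were measured, the dimmest at 16.6 and the brightest, *Tnni2*, at 3892 times the background. Precision is limited by the number of arrays, and since each array held 1 mouse, the spread between arrays includes that between mice.

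The probes of the 6 genes were among the brightest of the array. The mean Cy5 signal was 1504 times the local background for *CYTB*, 1286 times for *COX1*, 1222 times for *COX2* and 1140 times for *COX3*. It was 764 times the background for *ATP6* and 459 times for *ATP8*. Every one of the 144 readings was kept, all were called well above background by the scanner software, and none was saturated. Since probes differ in how well they hybridise, these values do not rank the genes by mRNA level.

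All 6 genes had lower ratios in Hypox than in Norm, by 0.67 to 0.90 on the log2 scale after loess normalization, with a median of -0.82 beside 0.028 for all genes tested. Counted from the lowest difference of the 9186 genes, *ATP6* ranked 7, *COX2* 8, *ATP8* 10, *COX3* 11, *COX1* 27 and *CYTB* 31. In the fit across all genes, 5 of the 6 had an unadjusted P-value below the threshold of 0.05 that the study used, all but *CYTB*, where 4.95% of all genes passed as lower. After Benjamini-Hochberg adjustment, 1 of the 6 passed, *ATP8*, where 0.261% of all genes passed as lower. *CYTB* passed the unadjusted threshold too with the slide as a block, with the replicate number as a block and without slide 1. With each array centred on its median, or on the deposited log2 values, 0 of the 6 passed it. With median centring no gene of the whole set passed as lower. With centring on the 100 genes of highest signal outside mitochondrial DNA, 4 of the 6 did. The counts over all genes also moved with these scalings and are given further below. As the genes were proposed from this same contrast, nothing is read from these counts.

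*CYTB* encodes cytochrome b, the subunit of complex III that binds coenzyme Q and the only one of that complex made in the mitochondrion. Its log2 ratio had a lowest value of -0.31, a median of 0.95 and a highest value of 2.93 in the 12 Norm arrays. In the 12 Hypox arrays the lowest value was -0.20, the median 0.35 and the highest 3.01. The groups overlapped over their whole range, and the highest array of either group lay on slide 1. The Norm mean was 1.13 ± 0.99 (SD, n = 12) and the Hypox mean 0.46 ± 0.88 (SD, n = 12), a difference of -0.67 with a standard error of 0.35. Of the 12 Hypox arrays, 11 lay below the median of Norm.

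*COX1* encodes the core subunit of cytochrome c oxidase, which holds the heme and copper centre where oxygen is reduced. Its log2 ratio ran from -0.70 over a median of 1.08 to 2.07 in Norm and from -0.40 over 0.14 to 1.93 in Hypox. The lowest array of all was thus a Norm array, of slide 6, and 10 of 12 Hypox arrays lay below the median of Norm. The difference was -0.69 (standard error 0.27), from 0.98 ± 0.82 (SD, n = 12) to 0.29 ± 0.64 (SD, n = 12).

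*COX2* encodes the subunit that takes up electrons from cytochrome c. In Norm its log2 ratio ran from -0.33 over a median of 0.74 to 2.65, and in Hypox from -0.45 over -0.17 to 1.42. Here 4 Hypox arrays lay below every Norm array and 4 Norm arrays above every Hypox array, with overlap between them. The difference was -0.89 (standard error 0.27), from 0.93 ± 0.86 (SD, n = 12) to 0.040 ± 0.57 (SD, n = 12).

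*COX3* encodes the third core subunit, which carries no metal centre. Its log2 ratio ran from -0.19 over a median of 0.56 to 2.42 in Norm and from -0.54 over -0.11 to 1.47 in Hypox. The groups overlapped, with 4 Hypox arrays below every Norm array and 11 of 12 below the median of Norm. The difference was -0.81 (standard error 0.26), from 0.83 ± 0.83 (SD, n = 12) to 0.027 ± 0.55 (SD, n = 12).

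*ATP6* encodes subunit a of ATP synthase, which forms the path of the protons beside the rotating ring. Its log2 ratio ran from -0.62 over a median of 0.54 to 2.04 in Norm and from -0.92 over -0.37 to 1.34 in Hypox. Of the Hypox arrays, 5 lay below every Norm array, and the 2 highest were those of slide 1. The difference was -0.90 (standard error 0.29), from 0.63 ± 0.86 (SD, n = 12) to -0.28 ± 0.68 (SD, n = 12), or 0.534 times the Norm level.

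*ATP8* encodes a small subunit of the same membrane part of ATP synthase. Its log2 ratio ran from -0.34 over a median of 0.30 to 1.31 in Norm and from -0.98 over -0.52 to 0.29 in Hypox. The groups were farthest apart for this gene: 8 Hypox arrays lay below every Norm array, 6 Norm arrays lay above every Hypox array, and all 12 Hypox arrays lay below the median of Norm. The difference was -0.84, of about the size of the others, and its standard error of 0.19 was the smallest of the 6. The Norm mean was 0.39 ± 0.58 (SD, n = 12) and the Hypox mean -0.45 ± 0.40 (SD, n = 12).

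The level of most of these genes also differed between slides, each of which held both groups. In the limma fit with group and slide as terms, a measure that took no part in the choice of the genes, the slide term passed an adjusted threshold of 0.05 for 4 of the 6, where 2.47% of all genes did. The adjusted P-value was 0.00141 for *ATP6*, 0.00174 for *CYTB*, 0.00637 for *COX2* and 0.0182 for *COX3*. It was 0.0749 for *COX1* and 0.380 for *ATP8*, which did not pass. On slide 1, the dimmest, the mean log2 ratio of the 4 arrays lay between 0.50 (*ATP8*) and 2.36 (*CYTB*). On slide 6, the brightest, it lay between -0.68 (*ATP6*) and -0.062 (*COX1*). The part that the brightness of an array has in its ratio was not tested, but with the processed signals or with the Cy5 channel alone the slide term passed for 0 of the 6 genes, while for all genes the counts were 2094 and 1191 in place of 227.

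**Figure D1:**
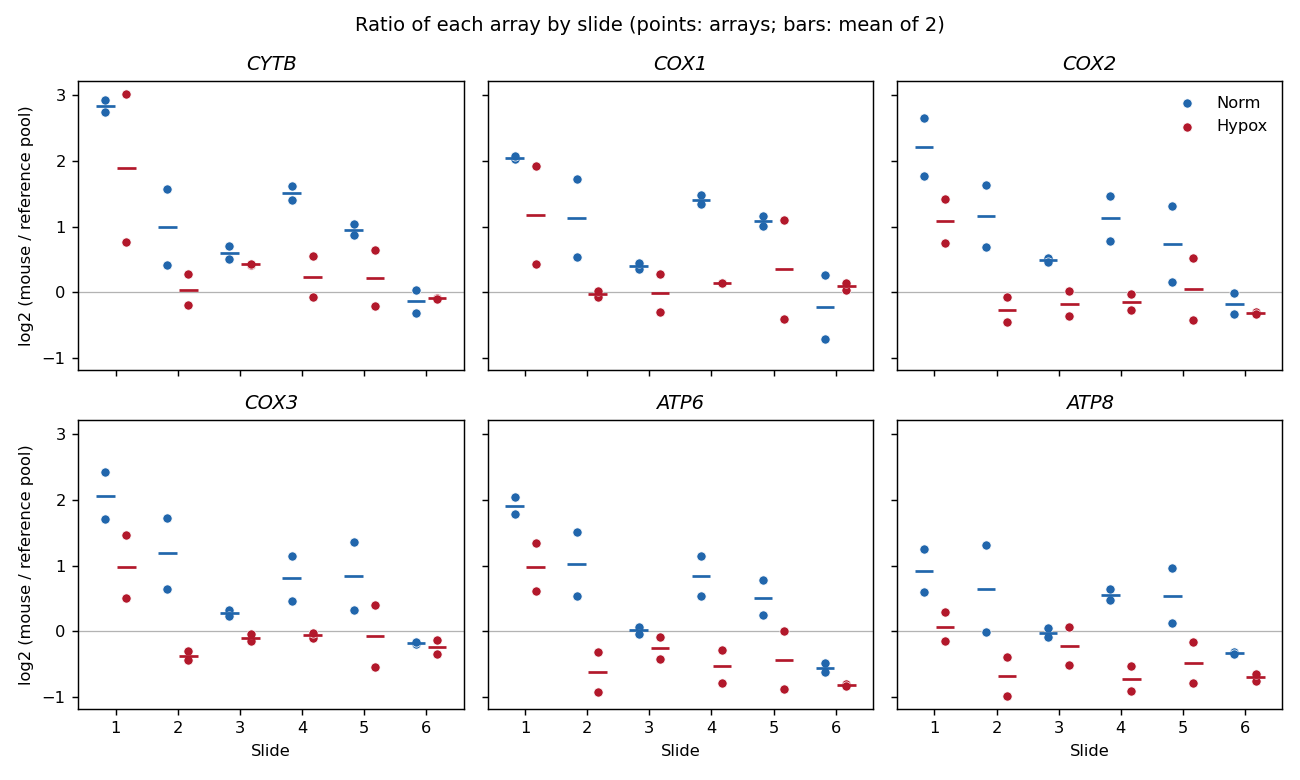
Log2 ratio of each array to the reference pool (vertical axis) by slide (horizontal axis), with 1 panel for each of the 6 genes; points are arrays, blue for Norm and red for Hypox, and horizontal bars the mean of the 2 arrays of a group on a slide. Slide 1 has the highest ratios, slide 6 the lowest for most genes, and the Hypox bar lies below the Norm bar in 34 of 36 pairs.

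Within slides, the mean of the 2 Hypox arrays lay below that of the 2 Norm arrays in 34 of the 36 pairs of a gene and a slide. The exceptions were *CYTB* at 0.046 and *COX1* at 0.31, both on slide 6. On slide 6 the differences of the other 4 genes were also small, the largest that of *ATP8* at -0.37, and on slide 3 all 6 lay between -0.66 and -0.18. On slide 2 they were widest, from -1.65 for *ATP6* to -0.96 for *CYTB*, and on slide 4 they lay between -1.37 and -0.87. Both Hypox arrays lay below both Norm arrays in 27 of the 36 pairs, and in 16.0% of such pairs over all genes. For *ATP6* that held on 6 of 6 slides, for *ATP8* on 5, and for each of the other 4 genes on 4. Without the 4 arrays of slide 1, the differences of the 6 genes lay between -0.90 and -0.62, and they are the same with the slide as a block, since every slide held 2 arrays of each group.

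The size of the difference depended on the normalization more than on any single array. Leaving out 1 array at a time, the difference of *CYTB* stayed between -0.90 and -0.51 and that of *ATP8* between -0.91 and -0.76. On the signals as the scanner software processed them, the 6 differences lay between -0.60 and -0.28, and with the Cy5 channel alone, set to equal quantiles, between -0.57 and -0.30. In the authors' deposited log2 values they lay between -0.36 (*ATP6*) and -0.073 (*CYTB*), below the median of all genes there of 0.085. With each array centred on its median in place of loess, *CYTB* was at 0.11 and *COX1* at 0.088, while *COX2* was at -0.12, *COX3* at -0.051, *ATP6* at -0.18 and *ATP8* at -0.17. The centring used the median of all non-control probes of an array, those that failed the filter on dim probes included. The direction of *CYTB* and *COX1* thus turned under that centring, which moved the median of all genes tested to 0.25. Relative to that median all 6 were lower, by 0.14 to 0.43.

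**Figure D2:**
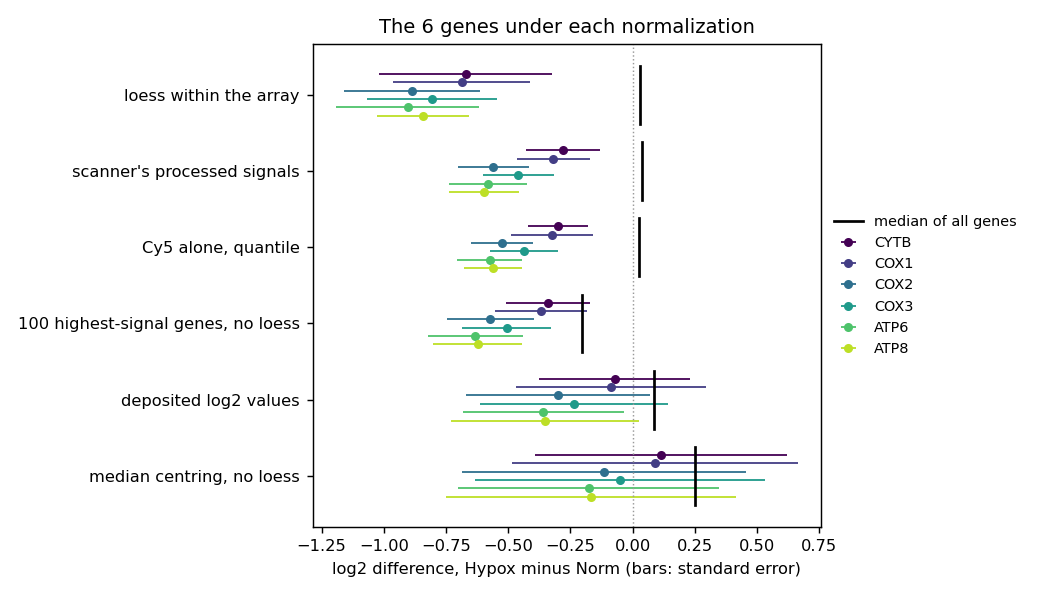
Log2 difference of Hypox minus Norm (horizontal axis) of the 6 genes under 6 normalizations (vertical axis); points are differences with their standard errors, and black bars the median of all genes under that normalization. All 6 genes lie left of the black bar in each row, with loess giving the widest gap and *CYTB* and *COX1* right of 0 under median centring.

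Before normalization the 2 channels differed less. In the mean log2 Cy5 signal after background correction, Hypox minus Norm was -0.00095 for *CYTB*, -0.047 for *COX1*, -0.14 for *COX3*, -0.21 for *COX2*, -0.23 for *ATP8* and -0.24 for *ATP6*. The same quantity was 0.15 for the median gene, and 0.31 for the median of the 100 genes of highest signal outside mitochondrial DNA, of which 95 were positive. In the Cy3 channel, which held the same pool on every array, the 6 genes differed by 0.013 to 0.090. The Hypox arrays were thus somewhat brighter for most genes of high signal, and the 6 genes were not.

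Genes of high signal in general had lower loess ratios in Hypox. Among the same 100 genes the median difference was -0.25 and 87 were negative. In the limma fit, 12 passed the unadjusted threshold as lower and 0 as higher, where 4.95% of all genes were lower and 7.00% higher. Only 1 of the 100 had a difference as low as that of *CYTB*, the mildest of the 6 mitochondrial genes. As the 6 were proposed from this same contrast, that place was favoured in advance and is only a description. When the arrays were centred on the median of these 100 genes without loess, a choice made after seeing the data, the differences of the 6 genes lay between -0.63 (*ATP6*) and -0.34 (*CYTB*). What part of the loess difference comes from the curve at high signal was not tested.

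**Figure D3:**
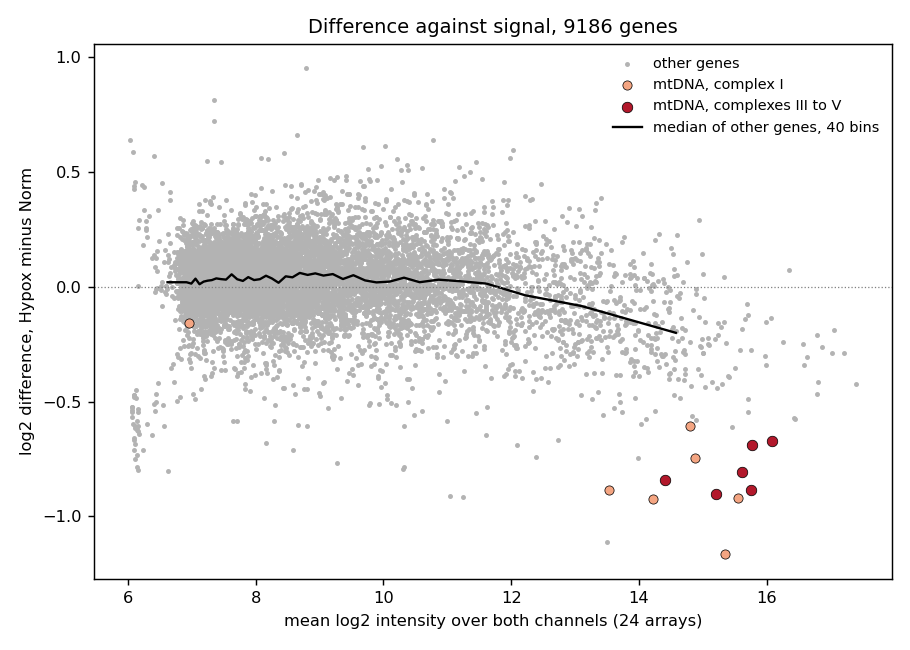
Log2 difference of Hypox minus Norm after loess (vertical axis) against the mean log2 intensity over both channels and 24 arrays (horizontal axis) for 9186 genes; dark red points are the 6 genes, light points the complex I genes of mitochondrial DNA, and the black line the median of the other genes along the intensity. The median bends below 0 at high intensity, and the 6 genes lie further below, between -0.90 and -0.67.

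Of the 7 complex I genes of the same genome, 6 had differences between -1.17 and -0.61, given side by side and without a test. The log2 difference was -0.89 for *ND1*, -0.92 for *ND2*, -0.61 for *ND3*, -0.74 for *ND4*, -1.17 for *ND4L* and -0.92 for *ND5*. *ND6*, the one of them on the opposite strand, was at -0.16, and its probe was dim, at 2.48 times the background and well above it on 14 of 24 arrays. The file places the *ND3* probe on chromosome 1 and not on chromosome M. Of the 13 genes, 10 were among the 30 lowest of all genes.

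The 6 genes varied together from array to array. Over the 24 arrays, Pearson's r of their log2 ratios lay between 0.79 (*CYTB* with *ATP8*) and 0.98 (*COX2* with *COX3*) in the 15 pairs, with a median of 0.90. With slide and group means removed, r lay between 0.59 (*COX1* with *ATP8*) and 0.92 (*COX2* with *COX3*), with a median of 0.80. *ATP6* and *ATP8*, which share an mRNA, had r = 0.92 after that removal, close to the pair of *COX2* and *COX3*. *CYTB* and *COX1* had r = 0.86 with each other and between 0.59 and 0.80 with the other 4. The mean of the 6 followed the mean of the complex I genes with r = 0.98 after that removal. These are descriptions over 24 arrays that share the reference pool, the slide and the loess curve at high signal.

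**Figure D4:**
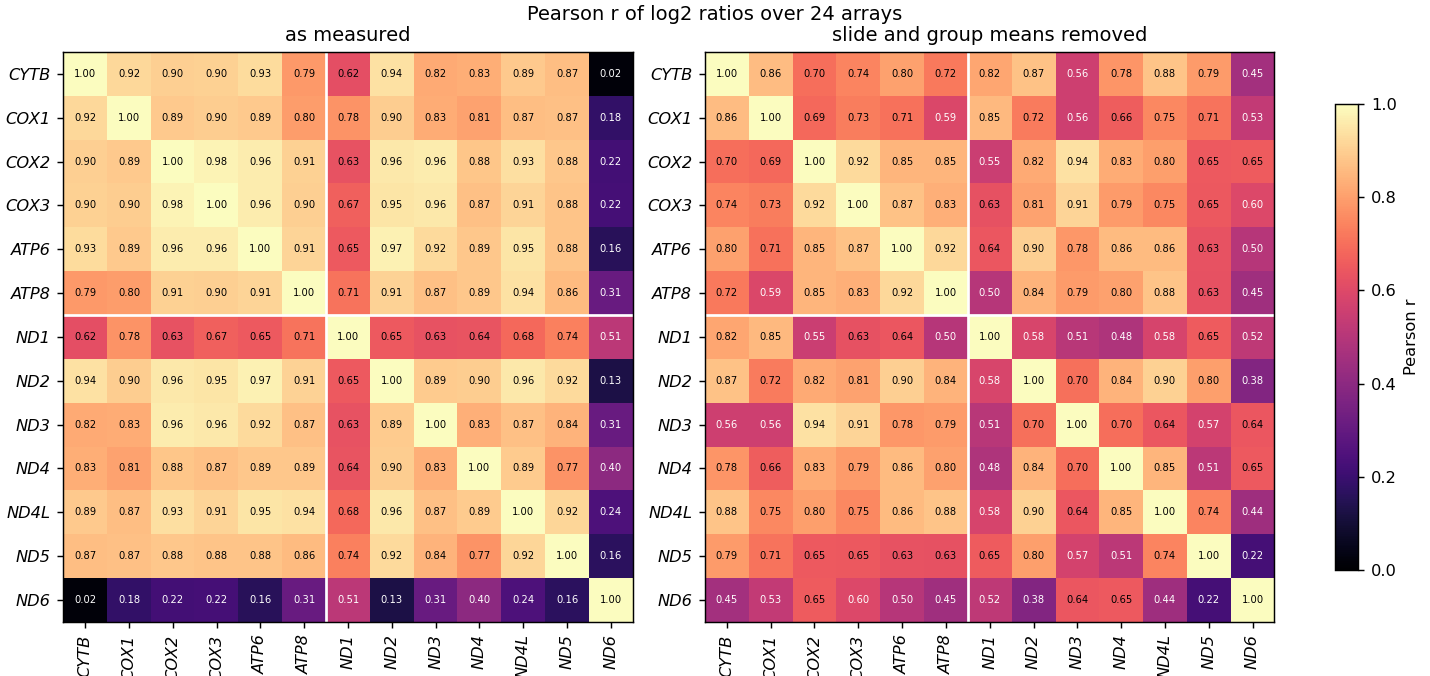
Pearson's r between the log2 ratios of the 13 protein genes of mitochondrial DNA over 24 arrays, as measured (left) and with slide and group means removed (right); both axes list genes, with white lines between the 6 genes and those of complex I, and the colour runs from 0 to 1. The 6 genes correlate at 0.79 or more as measured, and *ND6* stands apart, with r between 0.02 and 0.31 to the 6 genes in the left panel and between 0.45 and 0.65 in the right.

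The nuclear subunits of the same complexes had smaller differences. All 42 of the 42 listed were tested, and their median log2 difference was -0.085 beside -0.82 for the 6 mitochondrial genes and 0.028 for all genes. Of the 42, 7 were lower and 1 higher at the unadjusted threshold, where 4.95% of all genes were lower and 7.00% higher, 34 did not pass, and 0 passed after adjustment in limma. Complex III had 2 lower of 9, complex IV 1 lower and 1 higher of 15, and complex V 4 lower of 18. With the slide as a block, 12 were lower and 1 higher, where 6.05% of all genes were lower and 7.90% higher.

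**Figure D5:**
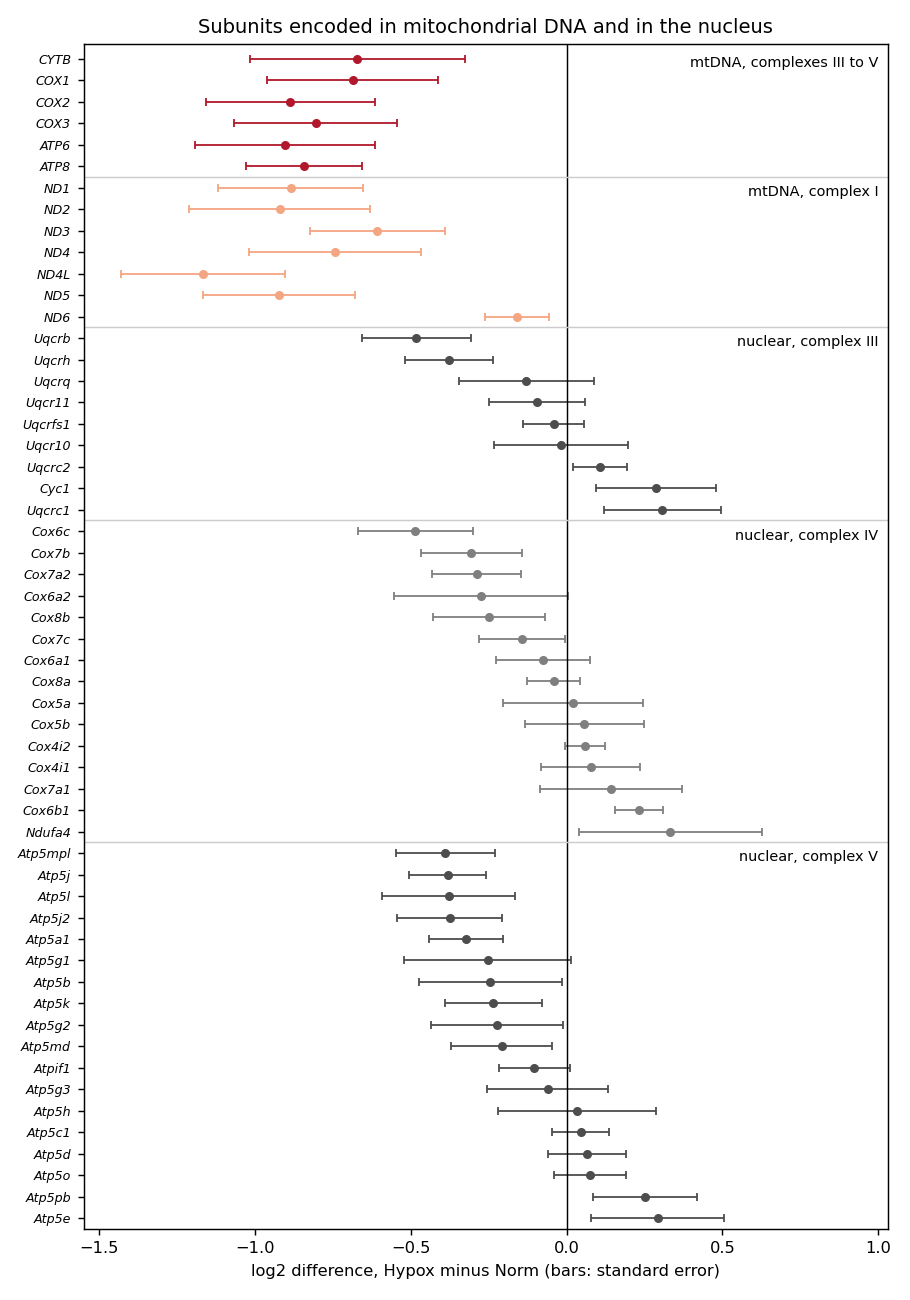
Log2 difference of Hypox minus Norm after loess, with its standard error (horizontal axis), of the protein genes of mitochondrial DNA (red for complexes III to V, light red for complex I) and of the 42 nuclear subunits of complexes III to V (grey). The 6 mitochondrial genes lie between -0.90 and -0.67 and no nuclear subunit lies below -0.49.

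In complex III, *Uqcrh*, the hinge protein that contacts cytochrome c1, had a Norm mean of 0.69 ± 0.46 (SD, n = 12) and a Hypox mean of 0.31 ± 0.24 (SD, n = 12), a log2 difference of -0.38 (unadjusted P-value 0.0123 from limma). *Uqcrb*, a small subunit that contacts cytochrome b, differed by -0.48 (unadjusted P-value 0.0101). In complex IV, *Cox6c* differed by -0.49 (unadjusted P-value 0.0140) and *Cox6b1*, which faces the intermembrane space, was the one subunit that was higher, by 0.23 (unadjusted P-value 0.00541). *Cox6a2*, the muscle form of subunit 6a and the brightest of the nuclear set, differed by -0.27 with a standard error of 0.28 and did not pass.

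In complex V, *Atp5j*, a part of the peripheral stalk, differed by -0.38 (unadjusted P-value 0.00483 from limma) and *Atp5a1*, the alpha subunit of the F1 head, by -0.32 (unadjusted P-value 0.0121). *Atp5j2* and *Atp5mpl*, small subunits of the membrane part that were named after their values were seen, differed by -0.38 and -0.39. The catalytic beta subunit *Atp5b*, at -0.25 with a standard error of 0.23, and *Atp5g1*, which encodes subunit c of the ring, at -0.25 with a standard error of 0.27, did not pass. With the slide as a block both passed as lower, at unadjusted P-values of 0.0238 and 0.0265 from limma.

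The mean over a gene's probes was -0.24 for *Uqcrh* and -0.12 for *Atp5j2*, neither of which then passed. The balance of lower and higher calls among the nuclear subunits depended on the normalization. With the scanner software's processed signals 1 of the 42 was lower and 4 were higher. With the Cy5 channel alone 2 were lower and 6 higher, and on the deposited values or with median centring 0 passed in limma. The share of all genes in each direction is not given for these settings, so no excess is read from the counts. The median of the 42 was 0.0096 with processed signals, beside 0.038 for all genes, and 0.032 with Cy5 alone, beside 0.023. *Uqcrb* was lower also with processed signals and with Cy5 alone, and *Cox6b1* was higher in both. The median of the 6 mitochondrial genes lay below that of the 42 nuclear subunits under each of these normalizations. The gap was -0.74 with loess, -0.52 with processed signals, -0.51 with Cy5 alone and -0.56 on the deposited values. With median centring it was -0.57, and the same with centring on the 100 genes of highest signal. A shift common to all genes of an array cancels in the gap, so the gap cannot respond to such centring. The gap is a description, as it rests on genes chosen from the contrast.

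Of 27 assembly factors of the 3 complexes, 20 were tested, and their median log2 difference was 0.14. At the unadjusted threshold 3 were higher and 0 lower, where 7.00% of all genes were higher and 4.95% lower, and 0 passed after adjustment in limma. *Coa3*, which stabilises newly made COX1, was higher by 0.26 (unadjusted P-value 0.0142). *Cox19*, a protein of copper delivery, was higher by 0.32 (unadjusted P-value 0.0475), and *Tmem70*, which helps to assemble the ring of ATP synthase, by 0.19 (unadjusted P-value 0.0331). *Cox14*, a partner of *Coa3*, differed by 0.16 with a standard error of 0.10, and *Uqcc2*, an assembly factor for cytochrome b, by 0.19 with a standard error of 0.17. With the slide as a block 5 were higher, where 7.90% of all genes were. With the methods' t-test or Cy5 alone 2 were higher, and with median centring or on the deposited values 0 passed. No share of all genes is set beside the counts of these last settings, so nothing is read from them. *Cox19* lost its call with processed signals, with Cy5 alone and with the methods' t-test. *Tmem70* lost its call with Cy5 alone, with the replicate number as a block and without slide 1. The 2 that passed with Cy5 alone were *Coa3* and *Cox14*.

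Of 16 genes of mitochondrial RNA synthesis and stability, 13 were tested, with a median log2 difference of 0.063, and 0 passed the unadjusted threshold in limma, where 4.95% of all genes were lower and 7.00% higher. *Lrpprc*, which binds and stabilises the mRNAs of mitochondrial DNA, differed by -0.091 with a standard error of 0.14, but passed as lower with Cy5 alone, at -0.25 (unadjusted P-value 0.0304 from limma), and without slide 1, at -0.22 (unadjusted P-value 0.0290). *Slirp*, its partner, differed by -0.28 with a standard error of 0.14 (unadjusted P-value 0.0654), and passed as lower without slide 1, at -0.33 (unadjusted P-value 0.0449). With centring on the 100 genes of highest signal *Slirp* also passed as lower, at -0.37 (unadjusted P-value 0.0466 from limma). The median of all genes was -0.20 under that centring. *Tfb2m*, a factor that starts mitochondrial transcription, differed by 0.058 with a standard error of 0.11.

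Outside mitochondrial DNA, the 8 genes whose ratios were most like the mean of the 6 over 24 arrays, with slide means removed, were *Uqcrh* (r = 0.90), *Vwa3b* (r = 0.90), *Fkbp1a* (r = 0.89), *Gm17511* (r = 0.88), *Rhox8* (r = 0.87), *Cplx2* (r = 0.87), *Rps14* (r = 0.85) and *Elk1* (r = 0.85). *Uqcrh*, a subunit of complex III, and *Vwa3b* were thus nearly equal at the top. The mean of the nuclear complex III subunits had r = 0.56 with the mean of the 6 after the same removal. That of complex IV had r = 0.64 and that of complex V r = 0.81. With group means removed too, r for these means was 0.70 for complex III, 0.76 for complex IV and 0.79 for complex V. After that removal r for the 8 genes named lay between 0.64 (*Elk1*) and 0.87 (*Uqcrh*). Their log2 differences after loess were below 0 for all 8, from -0.79 for *Rhox8* to -0.38 for *Uqcrh*, while with median centring 5 of the 8 lay above 0. As likeness was taken with the group difference left in, the choice favours that sign. With the mean over a gene's probes *Rhox8* was at -0.43, *Cplx2* at -0.64, *Fkbp1a* at -0.24 and *Uqcrh* at -0.24.

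Some markers of other cell types differed between the groups at the unadjusted threshold, where 4.95% of all genes were lower and 7.00% higher. With so few genes in each list, no excess over these shares is read from the calls. Of 6 adipocyte markers 4 were tested, all of them below 0, with *Adipoq* lower by 0.33 and *Cfd* by 0.56 at the unadjusted threshold. Their mean log2 ratio lay between -0.78 and 1.22 in the Norm arrays and between -0.75 and -0.13 in the Hypox arrays. Of 6 peripheral nerve markers all were tested, and *Pmp22* and *Prx* were among those lower at the unadjusted threshold, by 0.41 and 0.28, with the mean ratio of the list between -0.37 and 0.48 in Norm and between -0.58 and 0.18 in Hypox. Of the endothelial markers 4 of 6 were tested and *Cdh5* was higher by 0.38, with 2 of the 4 above 0, 2 below and a median of 0.069, the mean ratio of the list lying between -0.31 and 0.0059 in the Norm arrays and between -0.13 and 0.042 in the Hypox arrays. Of the lung markers only *Sftpc* passed the filter on dim probes, at 3.48 times the background and higher by 0.81, with a log2 ratio between -2.04 and -0.16 in the Norm arrays and between -1.40 and 2.57 in the Hypox arrays. Of the red blood cell markers 3 of 6 and of the leukocyte markers 3 of 6 were tested, and 0 of either passed in limma. Of the 9 muscle fibre markers *Mylpf* was higher by 0.36 and 8 did not pass, with a median of -0.21. The *Mylpf* probe was the dimmest of the 9, at 16.6 times the background. The part of all these markers in the differences of the 6 mitochondrial genes was not tested.

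Of all genes tested, 643 passed the unadjusted threshold as higher and 455 as lower, and after adjustment 8 and 24 did. This split moved with the scaling: median centring gave 31 higher and 0 lower, and centring on the 100 genes of highest signal gave 24 higher and 97 lower, with the median of all genes at -0.20.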

How the data were processed

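Total RNA of *M. gastrocnemius* from 12 Norm and 12 Hypox mice was hybridised on 24 two-colour arrays, with the mouse in Cy5 and the pool in Cy3. The authors deposited intensity values per spot (mean signal and local background), written by Agilent Feature Extraction 10.7.3.1 without normalization between arrays. They also deposited log2 values that they normalized in GeneMaths XT. Each column of that table has a median of 6.58. Its correlation with log2 signal was 0.965 to 0.998 for Cy5 and 0.903 to 0.993 for Cy3, so its scaling and its use of Cy3 are unknown. The descriptions of the samples gave the dyes, as the label field of some Hypox arrays names different ones.

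Control spots and 7260 flagged readings were left out. The background was corrected with normexp (offset 50), loess was applied to the ratios of each array, and spots with the same probe were averaged. Of 55681 probes, the RefSeq accession named 27235, the symbol 3581 and a synonym 565. Probes with a mean Cy5 signal over 2 times the background and at most 4 missing arrays were kept (14421), and each gene was read from its probe of highest mean log2 intensity. The groups were compared by limma's moderated test with no block and with Benjamini-Hochberg adjustment over 9186 genes, and the slide by limma's F test with the group as a term. P-values without adjustment follow the study's threshold. Positions and sequences of probes are those of the scanner files (mm9).

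The members and gene lists were chosen with earlier results of these data known. Some results for marker genes are not reported here. Named genes are the members, up to 6 genes with the smallest unadjusted P-value past 0.05 and the 3 of highest mean log2 intensity in each list of nuclear subunits, assembly factors and RNA factors, and the 8 genes most like the members. Alternatives were the processed signals, median centring, Cy5 alone, the deposited values, 2 other filters on signal, averages over a gene's probes, slide or replicate number as a block, the methods' t-test and each array left out. After seeing the data, centring on 100 genes of high signal and leaving out slide 1 were added. The tools were limma 3.58.1 under R 4.3.3, and pandas 2.3.3, numpy 2.4.6 and matplotlib 3.10.9 under Python 3.11.15, and the limma fits were tested on simulated data.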

Additional observations from a re-analysis of the deposited data

How the results depend on the processing

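The differences of the 6 genes kept their direction under every alternative run except median centring, where *CYTB* turned to 0.11 and *COX1* to 0.088 and *COX2* (-0.12), *COX3* (-0.051) and *ATP8* (-0.17) moved by more than the spread between replicates. With each array left out in turn the differences ranged from -0.90 to -0.51 for *CYTB*, -0.84 to -0.59 for *COX1*, -1.01 to -0.73 for *COX2*, -0.94 to -0.66 for *COX3*, -1.05 to -0.78 for *ATP6* and -0.91 to -0.76 for *ATP8*. The 1098 genes past the unadjusted threshold became 31 with median centring, 722 with Cy5 alone, 489 on the deposited values, 1936 without the filter on dim probes, 350 among genes well above background on all arrays and 121 with centring on the 100 genes of highest signal, and ranged from 969 to 1276 with 1 array left out. The 32 genes past adjustment became 66 with processed signals, 0 with median centring, 15 with Cy5 alone, 1 on the deposited values, 8 without the filter, 61 with the slide as a block, 9 with the methods' t-test and 0 with centring on the 100 genes (limma, where 31 and 121 passed without adjustment), and ranged from 4 (without Hypox replicate 3) to 55 (without Norm replicate 12) with 1 array left out. The 8 nuclear subunits past the unadjusted threshold became 5 with processed signals, 0 with median centring, 0 on the deposited values, 13 with the slide as a block and 1 with centring on the 100 genes, and ranged from 7 to 11 with 1 array left out. The 3 assembly factors became 5 with processed signals, 0 with median centring, 0 on the deposited values, 5 with the slide as a block, 1 with centring on the 100 genes and 5 without slide 1, and ranged from 1 (without Norm replicate 2, Hypox replicate 7 or Hypox replicate 9) to 5 (without Hypox replicate 12) with 1 array left out. The 0 genes of RNA synthesis and stability became 1 with Cy5 alone (lower), 1 with the mean of a gene's probes (higher) and 1 with centring on the 100 genes (lower). Without slide 1 they became 3, of which 1 was higher and 2 were lower. They ranged from 0 to 2 (without Norm replicate 4, Norm replicate 12 or Hypox replicate 2) with 1 array left out. The slide term, which passed for 227 genes, passed for 2094 with processed signals, 8947 with median centring, 1191 with Cy5 alone and 6066 on the deposited values, and for the 6 genes it fell from 4 to 0 with processed signals and to 0 with Cy5 alone. The cause was not tested.

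With the replicate number as a replicate block, 12 genes passed adjustment in place of 32, and the differences of the 6 genes were as without it, while *CYTB* passed the unadjusted threshold. Same-numbered arrays share only a number: their deviations correlated at between -0.18 and 0.41, 3 of 12 pairs were over 0.1, 1 of 12 pairs lay on the same slide, and 2 of 12 Norm arrays correlated best with their own number.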
